A study of Homo sapiens with 6 samples.

Results

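The axon guidance ligands and receptors described here are the 67 genes, of 17013 with values, whose symbols place them in the Eph receptor, ephrin, semaphorin, plexin, neuropilin, SLIT, ROBO, netrin, DCC and UNC5 families. They comprise 11 Eph receptors, 8 ephrins, 20 semaphorins, 9 plexins, 2 neuropilins, 3 SLIT genes, 4 ROBO genes, 4 netrins, DCC and 5 symbols of the UNC5 pattern. Among these, UNC5CL encodes an UNC5C-like protein that is not known as a netrin receptor, and it is kept because its symbol matches. The cells were Y79, an established human retinoblastoma line with an amplified MYCN gene, transduced with a hairpin RNA against the transcription factor gene MYCN (3 libraries) or with a control hairpin (3 libraries). The labels place all 6 libraries in 1 batch, and the series text calls the replicates independent and biological. The sources used here do not give the number of hairpin sequences used.

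Guidance ligands steer growing axons and migrating cells by attraction or repulsion. Ephrins are held in the membrane and bind Eph receptor tyrosine kinases on the neighbouring cell, semaphorins signal through plexins, the secreted class 3 members with neuropilins as co-receptors, SLIT proteins bind ROBO receptors, and netrins bind DCC and UNC5 receptors. In the developing retina, graded Ephs and ephrins map ganglion cell axons onto their brain targets, and netrin and SLIT proteins guide those axons within the eye and at the midline.

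Levels are CPM, the count of a gene as a share of its library's total in parts per 1000000, with totals scaled by the trimmed mean of M-values (TMM), and values of 3 libraries are given in the order of their replicate numbers. Depth was 15490263 to 15762707 estimated counts in MYCN hairpin libraries and 15515994 to 16078416 in control hairpin libraries, of which the 67 genes held 0.172% to 0.179% with the MYCN hairpin and 0.127% to 0.141% with the control hairpin. MYCN itself measured 2413, 2284 and 2195 CPM with its hairpin and 3046, 3128 and 2876 CPM with the control hairpin. Each MYCN hairpin library lay below each control library, and MYCN fell by 0.39 ± 0.043 on the log2 scale (standard error, SE; edgeR quasi-likelihood test, adjusted p = 8.0e-11). All 14 listed cone and shared photoreceptor markers were present at a mean of at least 1 CPM, among them CRX and OTX2, whereas the 7 immune markers in the table summed to 1.13 to 1.71 CPM with the MYCN hairpin and 1.53 to 1.93 CPM with the control hairpin. Of these photoreceptor markers 11 were called higher and 3 lower. The cone genes PDE6C, GUCA1A, THRB and ARR3 rose by 3.92, 3.64, 2.45 and 1.80, while the abundant OTX2 fell to 680 CPM with the MYCN hairpin against 1078 CPM with the control hairpin and NEUROD1 to 261 CPM with the MYCN hairpin against 438 CPM with the control hairpin, so the list's sum, led by these genes and GNB3, was 2334 to 2422 CPM with the MYCN hairpin and 2460 to 2596 CPM with the control hairpin. A list for ganglion and other inner retinal neurons, with ISL1 at 0 and with 2 genes called higher and 5 lower, summed to 587 to 604 CPM with the MYCN hairpin and 750 to 803 CPM with the control hairpin; the part of such markers in the values of guidance genes was not tested. In these bulk libraries, fewer cells with a transcript and less transcript per cell cannot be told apart.

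More guidance genes were higher than lower with the MYCN hairpin. Of the 67, 53 had enough counts to be tested, and 28 of them rose and 15 fell (adjusted p under 0.05 over all 12819 genes tested). That is 52.8% higher and 28.3% lower, where 38.0% and 37.9% of all genes tested were higher and lower. The share called in either direction was 81.1%, near the 75.8% of all genes, and 44 of 53 members (83%) had no overlap between the 2 sets of libraries, near the 76.8% of all genes. Changes of at least 2-fold were seen in 11 members upward and 7 downward, 20.8% and 13.2% of those tested, against 9.24% and 5.25% of all genes. The median log2 fold change was 0.26 over the 53 members and 0.00 over all genes tested. The direction of calls also varied with abundance over all genes. Under 2 CPM, 5 of 9 members were higher and 3 lower, beside 43% and 16.9% of 1096 genes. Between 2 and 10 CPM, 10 of 20 members were higher and 5 lower (50% and 25%), beside 42.1% and 27% of 2000 genes. Between 10 and 50 CPM, 10 of 16 members were higher and 4 lower (62.5% and 25%), beside 39.2% and 36.8% of 4905 genes. From 50 CPM upward 3 of 8 members were higher and 3 lower, beside 33.8% and 48.3% of 4818 genes. With library sizes as the only scaling, 30 of 53 tested members were called higher and 13 lower. The whole table then moved to 6597 higher and 3348 lower, 51.5% and 26.1% of genes tested, against 4865 and 4857 with TMM. Its median log2 fold change moved to 0.19 and that of members to 0.44. The share of calls that were higher was then 69.8% for members and 66.3% for all genes, against 65.1% and 50% with TMM. The gap between members and all genes in this share thus depended on the scaling.

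**Figure D1:**
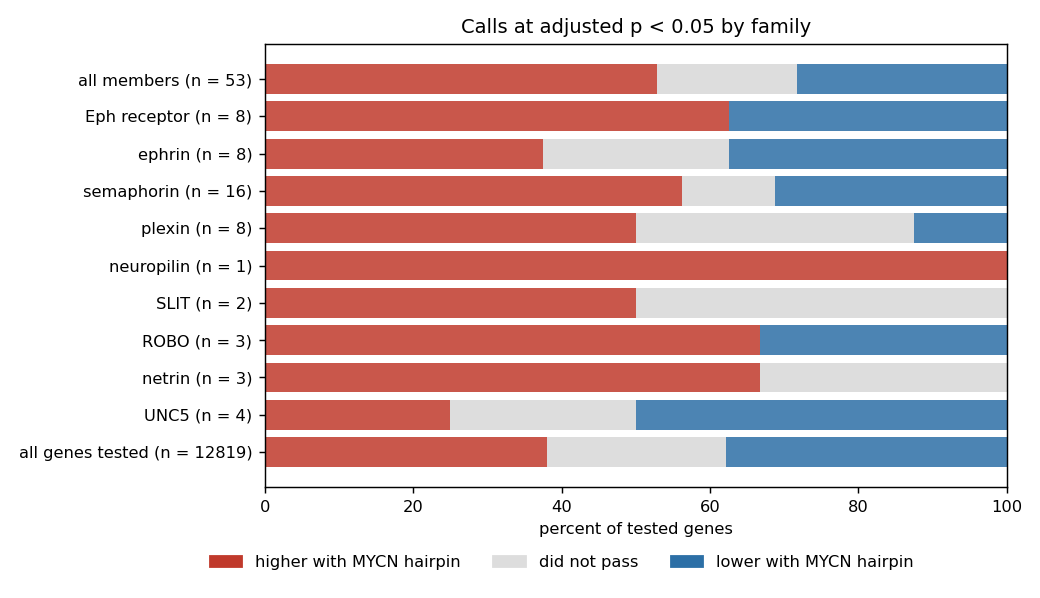
Percent of tested genes called higher (left), not called (middle) and called lower (right) with the MYCN hairpin against the control hairpin, by family, with the number tested in brackets. Members together show 52.8% higher and 28.3% lower, and all genes tested 38.0% and 37.9%.

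The calls by family stand beside 38.0% higher and 37.9% lower of all genes tested. Several families have too few tested genes to say more than which gene moved, and no test compared families. Among 8 tested Eph receptors 5 rose and 3 fell (62.5% and 37.5%, median log2 fold change 0.43). Among 8 ephrins 3 rose and 3 fell (37.5% each, median -0.22), near the shares of all genes. Among 16 semaphorins 9 rose and 5 fell (56.2% and 31.2%, median 0.39). Of 8 tested plexins 4 rose and 1 fell (50% and 12.5%, median 0.32). The smaller families gave 1 risen of 1 tested neuropilin, 1 risen of 2 SLIT genes, 2 risen and 1 fallen of 3 ROBO genes, 2 risen of 3 netrins, and 1 risen and 2 fallen of 4 UNC5 symbols. Taken by role, 15 of 29 tested ligands rose and 8 fell (51.7% and 27.6%). Receptors divided much alike, with 13 of 23 tested risen and 6 fallen (56.5% and 26.1%).

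**Figure D2:**
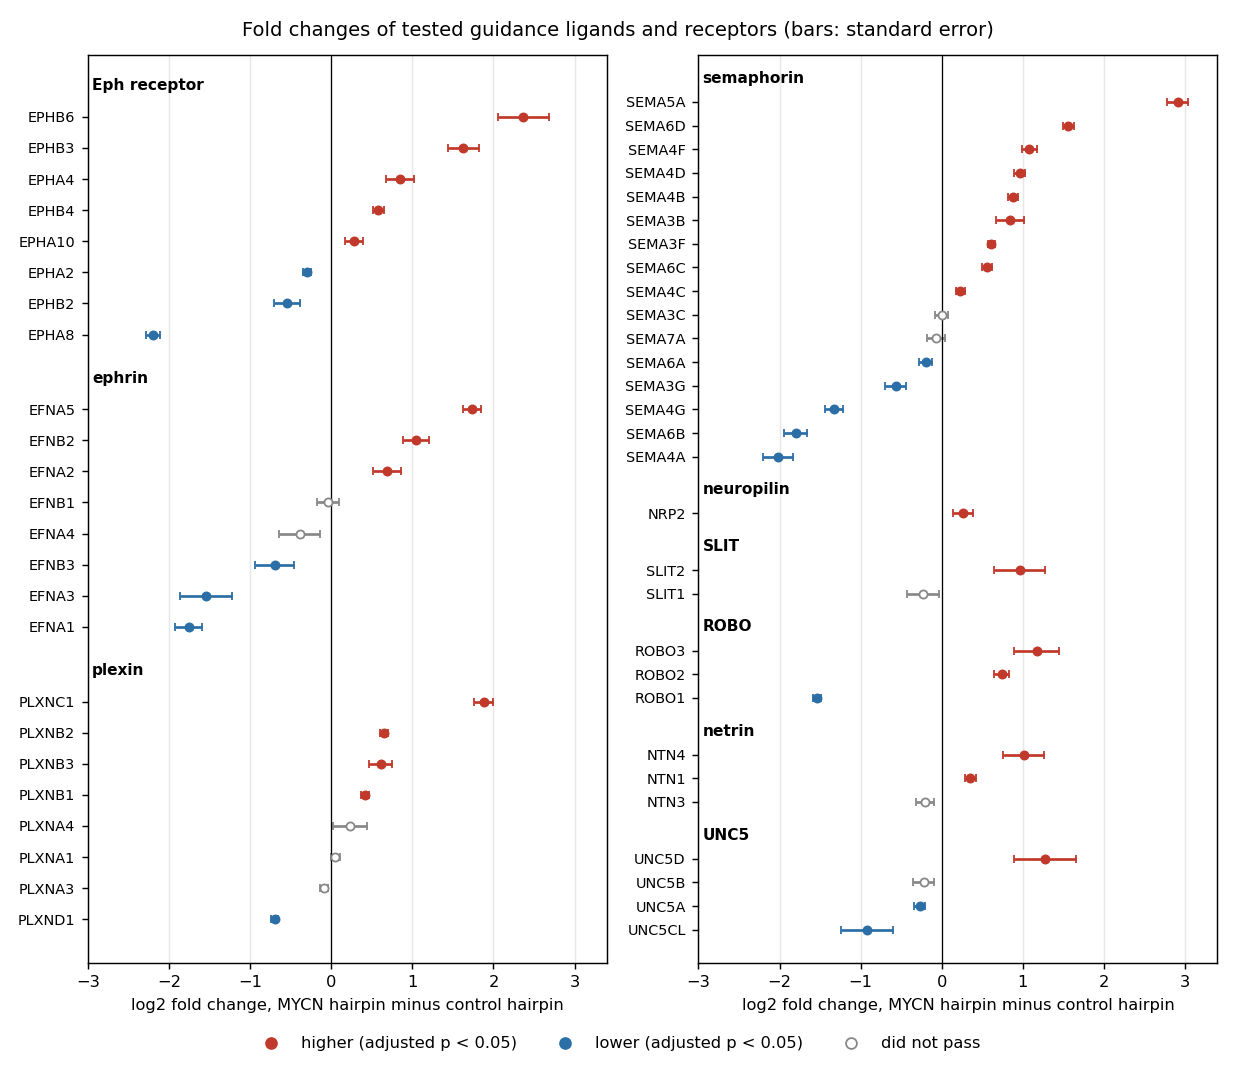
Log2 fold change of each tested member, MYCN hairpin minus control hairpin, with its standard error, grouped by family; filled points passed an adjusted p of 0.05 and open points did not. SEMA5A at 2.91 and EPHA8 at -2.20 are the extremes.

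Because MYC family proteins bind the palindrome CACGTG, called an E-box, RefSeq promoter windows (GRCh38.p14, 250 bases before to 50 after the annotated start) were searched for it on both strands, which for a palindrome is a single search. The search took 1 window per gene, so other starts of a gene were not searched. For PLXNC1, for example, the window began at 94262369, inside a gene that starts at 94148723. Windows were found for 57 of the 67 members and 4 held an E-box (7.02%), against 7.43% of all 27305 promoters and 10.2% of the 10352 promoters of genes tested. Among members called higher it was 2 of 25 promoters, and among members called lower 1 of 12, or 8% and 8.33%. Over all genes tested the shares were 7.68% of 3905 promoters of genes called higher and 12.4% of 3941 of genes called lower. The 250 bases upstream of the start are shown for the 3 tested members with an E-box, EPHA8 (chr1:22563239-22563488, plus strand), SEMA4D (chr9:89495657-89495906, minus strand) and SEMA6D (chr15:47183839-47184088, plus strand), and for SEMA5A (chr5:9546076-9546325, minus strand), the member with the highest fold change, which has none. Sequences run 5′ to 3′ along the gene, and capitals mark the E-box.
EPHA8: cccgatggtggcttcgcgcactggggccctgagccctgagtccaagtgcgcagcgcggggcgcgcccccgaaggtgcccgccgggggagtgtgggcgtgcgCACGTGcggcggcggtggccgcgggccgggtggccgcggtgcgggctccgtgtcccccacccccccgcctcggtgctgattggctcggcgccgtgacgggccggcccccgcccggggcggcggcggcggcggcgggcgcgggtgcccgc
SEMA4D: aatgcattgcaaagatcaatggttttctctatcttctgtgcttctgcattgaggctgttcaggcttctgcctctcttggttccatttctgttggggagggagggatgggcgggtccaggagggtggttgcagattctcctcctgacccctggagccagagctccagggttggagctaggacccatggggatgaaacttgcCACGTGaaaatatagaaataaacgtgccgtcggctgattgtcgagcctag
SEMA6D: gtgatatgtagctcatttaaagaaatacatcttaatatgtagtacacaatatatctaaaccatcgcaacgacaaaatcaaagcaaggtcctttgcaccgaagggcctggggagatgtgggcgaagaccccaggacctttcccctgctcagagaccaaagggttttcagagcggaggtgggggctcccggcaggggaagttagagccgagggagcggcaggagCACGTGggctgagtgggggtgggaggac
SEMA5A: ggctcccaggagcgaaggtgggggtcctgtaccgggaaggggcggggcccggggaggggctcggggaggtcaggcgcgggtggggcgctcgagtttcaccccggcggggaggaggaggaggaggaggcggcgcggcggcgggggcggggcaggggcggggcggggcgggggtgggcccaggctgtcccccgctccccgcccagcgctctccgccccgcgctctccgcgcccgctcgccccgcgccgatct
The E-box begins 149 bases before the start of EPHA8, which fell, and 50 and 28 bases before the starts of SEMA4D and SEMA6D, which rose. The fourth promoter with one belongs to SEMA3E, which had too few counts to test. A match describes these letters and shows no binding.

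The ephrin-A receptors split. EPHA8, a receptor that binds A-type ephrins (chromosome 1, 22563564 to 22603594, GRCh38 in GENCODE 29), had 7.08, 5.91 and 7.08 CPM with the MYCN hairpin and 30.5, 31.5 and 30.4 CPM with the control hairpin. Its groups were far apart, and EPHA8 fell by 2.20 ± 0.088 on the log2 scale (adjusted p = 5.7e-25), the lowest fold change of the tested members. EPHA2, a receptor for ephrin-A1 known from many epithelial tumours, held the largest part of the Eph level per length in both groups. It measured 77.4, 70.6 and 71.3 CPM with the MYCN hairpin against 93.9, 92.9 and 82.7 CPM with the control hairpin. Those ranges did not meet, and EPHA2 fell by 0.30 ± 0.051 (adjusted p = 1.7e-06). EPHA4, which binds ephrins of both classes, went the other way: it stood at 4.52, 4.22 and 5.61 CPM with the MYCN hairpin and at 2.76, 2.60 and 2.57 CPM with the control hairpin. All MYCN hairpin libraries were above the controls, and EPHA4 rose by 0.85 ± 0.17 (adjusted p = 1.5e-05). EPHA10, whose kinase domain is held to be inactive, rose by 0.28 ± 0.11 (adjusted p = 0.0177), a call that was lost by DESeq2 (adjusted p = 0.0736) and without control hairpin replicate 3 (adjusted p = 0.0851).

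Ephrin-B receptors were mostly higher, with 3 of 4 risen. EPHB6, whose kinase domain is also inactive, measured 2.62, 2.23 and 2.87 CPM with the MYCN hairpin and 0.525, 0.800 and 0.139 CPM with the control hairpin. No library overlapped, but the control values rest on 8, 12 and 2 counts. EPHB6 rose by 2.37 ± 0.31 (adjusted p = 5.3e-09), and its summed counts gave a ratio of 5.22 with an exact 95% counting interval of 3.30 to 8.62. EPHB3 stood at 3.99, 5.01 and 5.19 CPM with the MYCN hairpin against 1.51, 1.53 and 1.53 CPM with the control hairpin. The controls were nearly equal to each other and below each MYCN hairpin library, and EPHB3 rose by 1.63 ± 0.19 (adjusted p = 3.1e-10). EPHB4, the receptor of ephrin-B2 in vein endothelium, was the most abundant B receptor per length and rose by 0.58 ± 0.069, to 33.3 ± 1.7 CPM with the MYCN hairpin against 22.2 ± 1.6 CPM with the control hairpin (SD, n = 3 each; edgeR adjusted p = 5.2e-10). EPHB2 had 2.92, 3.38 and 2.99 CPM with the MYCN hairpin and 5.45, 4.20 and 3.95 CPM with the control hairpin. It was lower in each MYCN hairpin library than in each control and fell by 0.55 ± 0.16 (adjusted p = 0.00256).

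Ephrins moved in opposite directions within the A class. EFNA5, an ephrin-A whose graded expression helps to map ganglion cell axons in vertebrate visual centres, had 15.4, 16.4 and 16.4 CPM with the MYCN hairpin and 4.99, 4.07 and 5.48 CPM with the control hairpin. The lowest MYCN hairpin library exceeded the highest control, and EFNA5 rose by 1.73 ± 0.11 (adjusted p = 1.2e-17). EFNA1, the main ligand of EPHA2, had 2.26, 1.39 and 2.01 CPM with the MYCN hairpin and 7.22, 6 and 5.96 CPM with the control hairpin. Its libraries did not overlap, and EFNA1 fell by 1.76 ± 0.17 (adjusted p = 3.3e-12). EFNA3 was scarce, with 7, 6 and 14 counts in MYCN hairpin libraries and 28, 21 and 22 in controls. It was lower in each MYCN hairpin library and fell by 1.54 ± 0.32 (adjusted p = 4.1e-05). EFNA2 stood at 4.94, 4.58 and 3.78 CPM with the MYCN hairpin against 3.09, 3.07 and 2.08 CPM with the control hairpin; its groups were separate and it rose by 0.69 ± 0.17 (adjusted p = 4.9e-04). EFNA4 measured 1.25 ± 0.22 and 1.64 ± 0.21 CPM (SD, n = 3 each) with MYCN and control hairpins and did not pass (edgeR log2 fold change -0.39 ± 0.25, adjusted p = 0.158).

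Of the transmembrane B ephrins, EFNB2, a ligand of EPHB4 and EPHA4, had 6.43, 5.07 and 5.86 CPM with the MYCN hairpin and 3.09, 2.33 and 2.98 CPM with the control hairpin. All MYCN hairpin libraries were higher, and EFNB2 rose by 1.05 ± 0.16 (adjusted p = 1.6e-07). EFNB3 measured 1.61, 1.15 and 1.34 CPM with the MYCN hairpin against 1.71, 2.60 and 2.36 CPM with the control hairpin. The nearest libraries of the groups were close, and EFNB3 fell by 0.70 ± 0.24 (adjusted p = 0.00761), with an adjusted p of 0.057 without control hairpin replicate 2. EFNB1 had 6.01, 5.37 and 4.58 CPM with the MYCN hairpin and 6.50, 5.34 and 4.58 CPM with the control hairpin, overlapping ranges that did not pass (log2 fold change -0.04 ± 0.14, adjusted p = 0.8).

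Semaphorins held the highest fold change of the tested members. SEMA5A, a transmembrane semaphorin that in mouse keeps neurites of inner retinal neurons within their layer (chromosome 5, 9035026 to 9546075), had 15.9, 18.2 and 15.7 CPM with the MYCN hairpin and 2.10, 2 and 2.50 CPM with the control hairpin. Every MYCN hairpin library was several times above every control, and SEMA5A rose by 2.91 ± 0.13 (adjusted p = 5.9e-23). SEMA6D, a transmembrane ligand of PLXNA1 (chromosome 15, 47184101 to 47774223), stood at 54.9, 62.2 and 57.6 CPM with the MYCN hairpin and at 21.1, 18.5 and 19.6 CPM with the control hairpin. Its libraries were tight within groups and far apart between them, and SEMA6D rose by 1.56 ± 0.065 (adjusted p = 3.0e-24). SEMA4F had 23.7, 25.9 and 24.0 CPM with the MYCN hairpin against 12.3, 13.2 and 9.22 CPM with the control hairpin, without overlap. It rose by 1.08 ± 0.091 (adjusted p = 7.1e-14).

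At the other end, SEMA4A, a gene whose loss causes photoreceptor degeneration in mice (chromosome 1, 156147366 to 156177752), had 1.61, 1.27 and 1.28 CPM with the MYCN hairpin and 4.79, 7.14 and 5.06 CPM with the control hairpin. Each MYCN hairpin library was lower than each control, and SEMA4A fell by 2.02 ± 0.19 (adjusted p = 1.9e-12). SEMA6B measured 2.38, 3.62 and 2.44 CPM with the MYCN hairpin against 9.78, 9.67 and 9.98 CPM with the control hairpin. The controls were nearly equal and all above, and SEMA6B fell by 1.80 ± 0.14 (adjusted p = 7.4e-15). SEMA4G had 7.91, 6.76 and 5.37 CPM with the MYCN hairpin and 17.3, 16.7 and 16.4 CPM with the control hairpin, also without overlap, and fell by 1.33 ± 0.11 (adjusted p = 1.3e-14). Its exons share 1170 bases with MRPL43 on the opposite strand, and its longest coding transcript has 4094 bases. Since the strand setting is not given in the sources used here, reads in the shared stretch may come from either gene. MRPL43 averaged 40.4 CPM with the MYCN hairpin and 38.3 CPM with the control hairpin.

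Members of one semaphorin class did not share a direction. In the secreted class 3, SEMA3F, a repellent that acts through NRP2 (chromosome 3, 50155045 to 50189075), had 299, 292 and 304 CPM with the MYCN hairpin and 209, 194 and 185 CPM with the control hairpin. It was higher in each MYCN hairpin library and rose by 0.61 ± 0.041 (adjusted p = 4.0e-17), and SEMA3B rose by 0.84 ± 0.17. SEMA3G fell by 0.57 ± 0.13 (adjusted p = 1.0e-04). SEMA3C averaged 26.6 ± 0.83 CPM with the MYCN hairpin and 26.5 ± 3.9 CPM with the control hairpin (SD, n = 3 each), with overlapping libraries, and did not pass (edgeR log2 fold change 0.00 ± 0.077, adjusted p = 0.957). In class 4, SEMA4D, the ligand of PLXNB1, rose by 0.96 ± 0.064, SEMA4B by 0.88 ± 0.059 and SEMA4C by 0.23 ± 0.060. In class 6, SEMA6C rose by 0.56 ± 0.063 and SEMA6A fell by 0.20 ± 0.077 (adjusted p = 0.0177). The call of SEMA6A was lost by DESeq2, under 2 other scalings and without any of 3 libraries, one at a time, with adjusted p-values from 0.0551 to 0.837. SEMA7A, a semaphorin anchored by lipid, had 10.8, 8.99 and 9.15 CPM with the MYCN hairpin and 9.78, 9.94 and 10.7 CPM with the control hairpin, which overlap, and did not pass (log2 fold change -0.07 ± 0.11, adjusted p = 0.555).

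**Figure D3:**
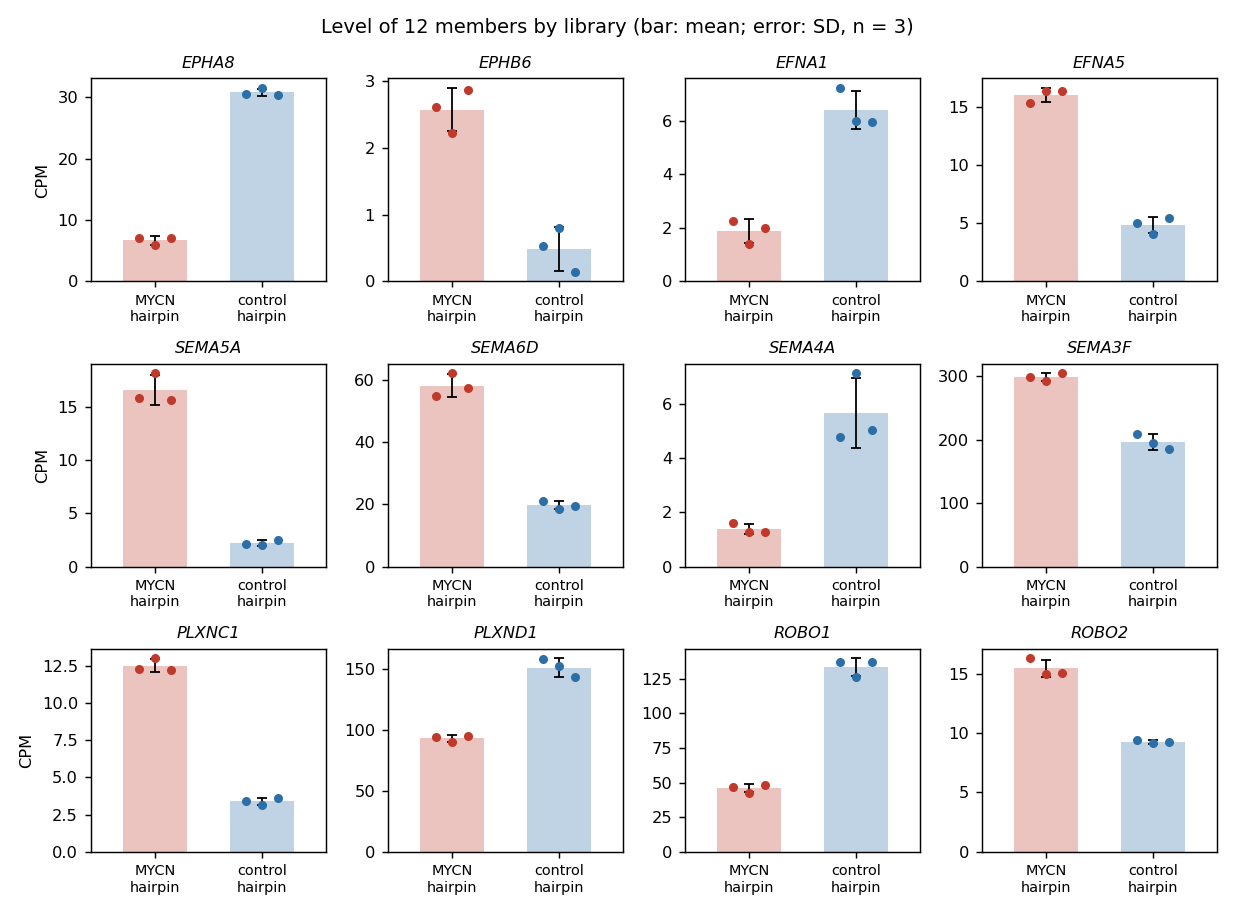
CPM of 12 members in each library (points), with the mean (bar) and SD (n = 3), MYCN hairpin left and control hairpin right; each axis starts at 0 and has its own range. All 12 were chosen from the called members. In none of them do the libraries of the groups overlap, which also holds for 76.8% of all genes tested. Of these 12, SEMA5A, at 15.7 to 18.2 CPM against 2 to 2.50 CPM, shows the widest relative gap.

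The 3 B-type plexins rose. PLXNB2, a receptor of class 4 semaphorins (chromosome 22, 50274979 to 50307627), had 344, 337 and 321 CPM with the MYCN hairpin and 229, 218 and 194 CPM with the control hairpin. No control reached the MYCN hairpin range, and PLXNB2 rose by 0.65 ± 0.046 (adjusted p = 4.8e-14). PLXNB3 measured 7.14, 7.30 and 5.92 CPM with the MYCN hairpin against 5.25, 3.93 and 4.16 CPM with the control hairpin. Its groups were separate and it rose by 0.61 ± 0.14 (adjusted p = 1.8e-04). Its exons share 1432 bases with SRPK3 on the same strand, which averaged 0.141 CPM with the MYCN hairpin and 0.045 CPM with the control hairpin. PLXNB1 rose by 0.41 ± 0.050 (adjusted p = 1.1e-09).

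PLXNC1, the receptor of SEMA7A (chromosome 12, 94148723 to 94307675), had the highest plexin fold change. It stood at 12.3, 13.0 and 12.2 CPM with the MYCN hairpin and at 3.41, 3.13 and 3.60 CPM with the control hairpin. The lowest MYCN hairpin library was over 3 times the highest control, and PLXNC1 rose by 1.88 ± 0.12 (adjusted p = 1.9e-17). PLXND1, the receptor of SEMA3E with a known part in blood vessel patterning (chromosome 3, 129555175 to 129606818), was the plexin that fell. It had 94.0, 89.6 and 95.3 CPM with the MYCN hairpin and 158, 152 and 143 CPM with the control hairpin. All controls were higher, and PLXND1 fell by 0.70 ± 0.044 (adjusted p = 4.1e-18).

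The A-type plexins, which pair with neuropilins as receptors of class 3 semaphorins, did not pass. PLXNA1 averaged 72.5 ± 5.4 CPM with the MYCN hairpin and 70.2 ± 3.5 CPM with the control hairpin, PLXNA3 49.5 ± 0.51 and 52.7 ± 3.3 CPM, and PLXNA4 2.47 ± 0.39 and 2.10 ± 0.44 CPM (SD, n = 3 each). Their log2 fold changes were 0.05 ± 0.053, -0.09 ± 0.055 and 0.23 ± 0.21 (SE; edgeR adjusted p = 0.427, 0.135 and 0.314), and their libraries overlapped. PLXNA1 was called higher with library sizes as the only scaling (adjusted p = 3.6e-04), and PLXNA3 lower without control hairpin replicate 3 (adjusted p = 0.0145).

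Neuropilins, the co-receptors of class 3 semaphorins, were few in reads. NRP2 had 7.97, 8.14 and 8.11 CPM with the MYCN hairpin and 7.22, 6.40 and 6.59 CPM with the control hairpin. The groups were close but separate, and NRP2 rose by 0.26 ± 0.12 (adjusted p = 0.0428), a call lost by DESeq2 (adjusted p = 0.136), without a filter (adjusted p = 0.0726) and without any of 5 libraries, one at a time (adjusted p = 0.0657 to 0.134). NRP1 had 7, 12 and 11 counts in MYCN hairpin libraries and 0, 3 and 0 in controls, too few to be tested. Its summed counts were 30 against 3, a ratio of 8.97 with an exact 95% counting interval of 2.79 to 45.9, and without a filter NRP1 was called higher (adjusted p = 6.2e-05).

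ROBO genes did not share a direction. ROBO1, the receptor through which SLIT proteins repel axons (chromosome 3, 78597240 to 79767815), had 46.7, 42.5 and 48.4 CPM with the MYCN hairpin and 137, 126 and 137 CPM with the control hairpin. Every control was more than 2 times any MYCN hairpin library, and ROBO1 fell by 1.54 ± 0.051 (adjusted p = 1.1e-27). ROBO2, 947.3 kb from ROBO1 on chromosome 3 (75906695 to 77649964), went the other way. It had 16.3, 15 and 15.1 CPM with the MYCN hairpin and 9.39, 9.14 and 9.22 CPM with the control hairpin. Its libraries were separate, and ROBO2 rose by 0.74 ± 0.095 (adjusted p = 3.6e-09). ROBO3, known for its part in the midline crossing of axons, measured 1.55, 1.75 and 2.01 CPM with the MYCN hairpin against 0.656, 0.934 and 0.763 CPM with the control hairpin. It was higher in each MYCN hairpin library and rose by 1.17 ± 0.28 (adjusted p = 2.4e-04). ROBO4, a receptor of vascular endothelium, had 8, 14 and 13 counts in MYCN hairpin libraries and 0 in each control. It was too scarce to be tested. Against a floor of 3 counts over the 3 controls it was at least 10.5-fold higher by summed counts, the exact 95% counting interval of the ratio began at 8.07, and without a filter ROBO4 was called higher (adjusted p = 8.4e-09).

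Because ROBO4 and NRP1 are also endothelial transcripts, the endothelial markers stand beside them. The 5 in the table summed to 41.3 to 46.7 CPM with the MYCN hairpin and to 8.32 to 9.12 CPM with the control hairpin. VWF averaged 33.4 ± 2.1 CPM with the MYCN hairpin and 4.32 ± 0.34 CPM with the control hairpin (SD, n = 3 each), CLDN5 and ESAM were also called higher, KDR had 0 counts in every library and PECAM1 had 15 counts with the MYCN hairpin and 2 with the control hairpin. Their part in the values of ROBO4 and NRP1 was not tested.

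SLIT ligands were scarce. SLIT2 had 30, 29 and 15 counts in MYCN hairpin libraries and 15, 9 and 10 in controls, or 1.79, 1.75 and 0.915 CPM with the MYCN hairpin against 0.985, 0.600 and 0.693 CPM with the control hairpin. MYCN hairpin replicate 3 lay within the range of the controls, and SLIT2 rose by 0.96 ± 0.31 (adjusted p = 0.00526). Only the MYCN hairpin group, where SLIT2 was higher, reached the count filter's minimum of 10 in all its libraries. SLIT1 had 1.79, 1.99 and 2.26 CPM with the MYCN hairpin and 2.17, 2.40 and 2.50 CPM with the control hairpin, which overlap, and did not pass (log2 fold change -0.23 ± 0.20, adjusted p = 0.316). SLIT3 had 23 counts with the MYCN hairpin and 21 with the control hairpin over 3 libraries each.

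In CPM, netrin genes were led by NTN1, a secreted ligand that guides ganglion cell axons at the optic disc. Per length, NTN1 led with the MYCN hairpin, at 49.8% of the netrin level, and NTN3 with the control hairpin, at 53.9%. NTN1 had 31.8, 31.9 and 32.6 CPM with the MYCN hairpin and 28.3, 23.5 and 23.9 CPM with the control hairpin. All MYCN hairpin libraries were higher, and NTN1 rose by 0.35 ± 0.069 (adjusted p = 2.1e-05). NTN4, a netrin of basement membranes, measured 2.32, 2.17 and 1.89 CPM with the MYCN hairpin and 1.18, 0.800 and 1.18 CPM with the control hairpin. Its groups were separate and NTN4 rose by 1.01 ± 0.25 (adjusted p = 3.6e-04). NTN3 stood at 9.82, 8.38 and 10.1 CPM with the MYCN hairpin and at 11.9, 11.7 and 8.94 CPM with the control hairpin, overlapping values that did not pass (log2 fold change -0.21 ± 0.11, adjusted p = 0.0873). Without control hairpin replicate 3 it was called lower (-0.33, adjusted p = 0.00815).

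Of the netrin receptors, DCC, which mediates attraction, was all but absent, with 2 counts in 1 MYCN hairpin library and 0 in the other 5 libraries. Neogenin (NEO1), the DCC homologue that also binds netrins, is outside the rule and averaged 179 ± 6.1 CPM with the MYCN hairpin and 163 ± 1.9 CPM with the control hairpin (SD, n = 3 each; edgeR log2 fold change 0.13 ± 0.040, adjusted p = 0.00262). UNC5 receptors mediate repulsion. UNC5A held most of the UNC5 level, with 27.3, 26.7 and 25.9 CPM with the MYCN hairpin and 30.9, 35.5 and 29.7 CPM with the control hairpin. It was lower in each MYCN hairpin library and fell by 0.27 ± 0.068 (adjusted p = 6.0e-04), a call lost with library sizes as the only scaling (-0.08, adjusted p = 0.272). UNC5B had 5.83, 5.31 and 5.73 CPM with the MYCN hairpin and 6.96, 6.60 and 6.10 CPM with the control hairpin. Its libraries did not overlap, yet it did not pass (log2 fold change -0.22 ± 0.13, adjusted p = 0.113). UNC5D was scarce, with 13, 14 and 22 counts in MYCN hairpin libraries and 5, 8 and 5 in controls, and rose by 1.27 ± 0.38 (adjusted p = 0.00303). It passed the count filter only through the MYCN hairpin libraries, where it was higher. UNC5CL had 10, 12 and 9 counts with the MYCN hairpin and 17, 18 and 18 with the control hairpin. It fell by 0.92 ± 0.32 (adjusted p = 0.00834, and 0.0585 by DESeq2). Only the control hairpin group, where UNC5CL was higher, reached the filter's minimum in all its libraries. Its exons share 747 bases with OARD1 on the same strand, which averaged 32.9 CPM with the MYCN hairpin and 42.7 CPM with the control hairpin. Reads of OARD1 in the UNC5CL counts were not tested for.

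The 14 members without enough counts to test were EPHA3, EPHA6, EPHA7, SEMA3A, SEMA3D, SEMA3E, SEMA5B, PLXNA2, NRP1, SLIT3, ROBO4, NTN5, DCC and UNC5C. EPHA7 had 0 counts in every library. SEMA3A, the class 3 semaphorin that acts through NRP1, had 1 count in all. Apart from ROBO4 and NRP1, the largest count in any library was 10.98, for EPHA6 in control hairpin replicate 1. EPHA6 summed to 12 counts with the MYCN hairpin and 25 with the control hairpin, a ratio of 0.431 with an exact 95% counting interval of 0.197 to 0.889, and without a filter EPHA6 was called lower (-1.20, adjusted p = 0.0443). These intervals cover counting error only.

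Levels of different genes are compared per length, as CPM per kb of the longest coding transcript in GENCODE 29. Summed in this way, semaphorins averaged 151 ± 0.59 with the MYCN hairpin and 106 ± 3.8 with the control hairpin (SD, n = 3 each), and plexins 93.6 ± 3.0 with the MYCN hairpin and 78.2 ± 5.1 with the control hairpin. A single gene made up about as much as all others of its family: SEMA3F held 52.0% of the semaphorin level with the MYCN hairpin and 48.6% with the control hairpin, PLXNB2 55.9% and 42.7% of the plexin level, and EPHA2 57.3% and 61.2% of the Eph level. ROBO genes summed to 8.38 ± 0.44 CPM per kb with the MYCN hairpin and 19.0 ± 0.87 with the control hairpin, and ROBO1 held 73.0% of that with the MYCN hairpin and 93.7% with the control hairpin. The 8 ephrins summed to 13.1 ± 0.82 CPM per kb with the MYCN hairpin and 12.2 ± 1.0 with the control hairpin, close totals with a different leading gene: EFNA2 held 35.6% with the MYCN hairpin, and EFNA1 27.2% with the control hairpin. With 3 libraries against 3, an exact permutation test of such a sum cannot go below 0.10, so no p is given for these sums.

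**Figure D4:**
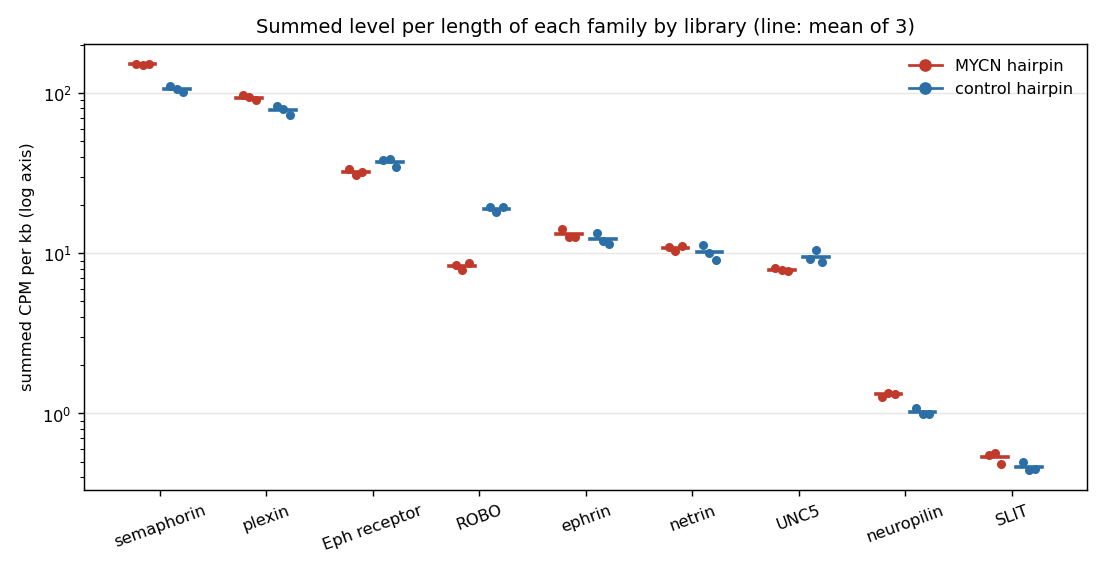
Summed CPM per kb of each family in each library (points) on a log axis, with the mean of 3 as a line, MYCN hairpin left of control hairpin. Semaphorins lie at 150 to 151 against 102 to 110 and ROBO genes at 7.90 to 8.75 against 18.0 to 19.5, whereas ephrin, netrin and SLIT libraries overlap.

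Some ligands and receptors that bind each other changed in the same direction and others did not. The pairs given are examples and not all pairs. SEMA4D rose by 0.96 with PLXNB1 at 0.41, while SEMA7A, at -0.07, did not pass beside PLXNC1 at 1.88. SEMA6D rose by 1.56 beside PLXNA1, at 0.05, which did not pass. EFNA1 fell by 1.76 and its receptor EPHA2 by 0.30, whereas EFNB2, EPHB4 and EPHA4 rose by 1.05, 0.58 and 0.85. SEMA3F and NRP2 rose by 0.61 and 0.26, but the call of NRP2 held in only 7 of 14 alternative fits. SLIT2 rose by 0.96, while of its main receptors ROBO1 fell and ROBO2 rose. Opposed pairs were EFNA5, which rose by 1.73, with EPHA8, a receptor of A-type ephrins that fell by 2.20. NTN1 rose by 0.35 while UNC5A fell by 0.27, a call lost with library sizes as the only scaling.

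Some members lie near each other on a chromosome. Only members were considered, so other genes may lie between them. The A ephrins EFNA4, EFNA3 and EFNA1 lie within chromosome 1, 155063731 to 155134857, with log2 fold changes of -0.39 (did not pass), -1.54 and -1.76. An annotated transcript on the same strand, AL691442.1, shares exon bases with both EFNA4 and EFNA3, so reads there may be divided between genes. EPHA8 and EPHB2, 107.2 kb apart on chromosome 1, both fell. SEMA3F and SEMA3B, 78.5 kb apart on chromosome 3, both rose. ROBO3 and ROBO4 lie 2.2 kb apart on chromosome 11, and both had more counts with the MYCN hairpin, while ROBO2 and ROBO1, 947.3 kb apart, differed in direction. PLXNB3 and PLXNA3 lie 678.9 kb apart on chromosome X, and PLXNB3 rose while PLXNA3 did not pass.

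Other genes of the pathway, from lists of further cues and receptors and of intracellular effectors, divided much as the members did. Of 122 tested, 69 rose and 33 fell, 56.6% and 27.0% beside the 38.0% and 37.9% of all genes tested, with a median log2 fold change of 0.31. Among 30 further cues and receptors 16 rose and 8 fell. FLRT2, an adhesion protein that binds UNC5 receptors, rose by 3.56 to 16.9 ± 0.80 CPM with the MYCN hairpin against 1.43 ± 0.10 CPM with the control hairpin, and the adhesion gene NCAM1 rose by 1.07. PTPRF, a receptor phosphatase, fell by 1.04 to 105 ± 4.1 CPM with the MYCN hairpin against 215 ± 3.1 CPM with the control hairpin, and NTNG2, a membrane-anchored netrin relative, fell by 1.39 (SD, n = 3 each).

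Among 28 tested effectors of Ephs and ephrins 15 rose and 8 fell. The exchange factor genes ITSN2 and TIAM1 rose by 1.48 and 1.5, while the kinase gene YES1 fell by 1.36 and the phosphatase gene PTPN11 by 0.80. Of 30 effectors of semaphorins and plexins 16 rose and 8 fell, with the integrin gene ITGB1 at 1.28 and the filamin gene FLNA at 1.07 against the exchange factor gene ARHGEF12 at -0.79 and CRMP1, a collapsin response mediator, at -0.35. Of 34 effectors of SLIT, ROBO, netrin and DCC 22 rose and 9 fell. SDC1, a syndecan, rose by 2.20 to 66.0 ± 3.3 CPM with the MYCN hairpin against 14.4 ± 0.55 CPM with the control hairpin, and PITPNA, a phosphatidylinositol transfer protein, by 0.79. TUBB3, the neuronal beta tubulin, fell by 1.39 to 245 ± 12 CPM with the MYCN hairpin against 643 ± 37 CPM with the control hairpin (SD, n = 3 each), and VASP, an actin regulator, by 1.08.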

How the data were processed

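RNA was extracted with TRIzol and selected for poly(A), per the labels' protocols, and reads were paired-end. The authors deposited estimated counts by gene symbol, unscaled, with 12.5% to 12.8% of values not whole. GRCh38 is the build named in the submitters' processing notes. The sources used here do not give the aligner, counting program or strand setting. Of 17035 rows, 22 without values were left out. Groups and replicate numbers came from the titles. No replicates were identical (chi-square per degree of freedom 1.73 to 4.23).

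Counts were rounded, filtered by filterByExpr (minimum 10), scaled by TMM and tested with the quasi-likelihood test of edgeR 4.0.16 (R 4.3.3), adjusted by Benjamini-Hochberg at 0.05. The filter keeps a gene that reaches the minimum in as many libraries as a group has. UNC5D, EPHB6, EFNA3, SLIT2 and UNC5CL, among others, reached it in all libraries only of the group where they were higher. Their calls are part of the counts of members called. P-values measure spread between these libraries. The SE was derived from the F statistic. Counts that are not whole occur in 8 members, and how they arose is not given. DCC was matched as a whole symbol. The rule gave full values to the 3 highest and 3 lowest called members of each larger family, its most abundant member and each tested member of smaller families, and, of other pathway genes, to the 2 of each list with the smallest p in each direction. Members and lists were chosen with earlier results of these data known. Marker lists for Müller glia (led by GLUL and VIM), fibroblasts and pigment epithelium (led by DCT) summed to 1229 to 1255, 5.67 to 7.74 and 333 to 354 CPM with the MYCN hairpin and 1185 to 1233, 3.13 to 3.61 and 335 to 359 CPM with the control hairpin. Single genes led these sums: 4 glial genes were called higher (DKK3 by 3.92, CLU by 0.98, VIM by 0.68, CRYM by 3.28) and GLUL lower, and RPE65 and BEST1 rose by 4.22 and 1.25. COL1A1 and COL1A2 were called higher. On simulated data (12710 genes, 200 changed), 88.0% of 1.5-fold and 97.0% of 2-fold changes were recovered and 18 unchanged genes called. That simulation changed a far smaller share of genes than the 75.8% called here, so it does not test the scaling of these data. Alternatives were DESeq2 1.42.0, limma-voom (limma 3.58.1), other scalings and filters, a replicate block and each library left out. GENCODE 29 gave positions and lengths, RefSeq (GRCh38.p14) the promoters.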

Additional observations from a re-analysis of the deposited data

How the results depend on the processing

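Of 43 called members, 37 (26 higher, 11 lower) kept direction and call in each of the 14 alternatives in which they were tested, among them all 18 that changed at least 2-fold. The exceptions were EPHA10, EFNB3, SEMA6A, NRP2, UNC5A and UNC5CL, whose values stand in the report. Counts of members called were 26 to 30 higher and 13 to 16 lower over all alternatives. With library sizes alone the share of calls that were higher moved to 66.3% of all genes, against 50% with TMM, and to 69.8% of members, against 65.1%. Of the others, 5 members that had not passed turned in direction without passing: EFNB1 (0.14 with library sizes alone and, with a library left out, -0.16 to 0.10), SEMA3C (-0.01 without a filter, and -0.09 to -0.01 with a library left out), SEMA7A (0.11 with library sizes alone), PLXNA3 (0.09 with library sizes alone) and PLXNA1 (-0.01 without MYCN hairpin replicate 1). SEMA3C was called higher with library sizes alone (0.19, adjusted p = 0.0298). The causes of these shifts were not tested. The share of member promoters with an E-box was 7.02% also in a window from 150 bases before the start, where it was 5.66% of all promoters and 7.8% of promoters of genes tested, against 7.43% and 10.2% in the longer window. The labels name 1 batch for all 6 libraries and none for a replicate number. Deviations of libraries with the same number correlated at 0.120, 0.104 and 0.026. Control hairpin replicate 3 correlated best with MYCN hairpin replicate 2 (0.040), and every other library with its own number. A replicate block gave 28 members higher and 15 lower, as without it, and 4967 and 4939 genes overall. Depth limits the 14 untested members and those near 1 CPM.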

Other observations

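Symbols that contain DCC without being DCC fall outside the set described above. IGDCC3 and IGDCC4 encode immunoglobulin superfamily proteins named as relatives of DCC, and both were far more abundant than DCC, which had 2 counts. IGDCC3 averaged 36.8 ± 1.8 CPM with the MYCN hairpin and 56.3 ± 1.6 CPM with the control hairpin and fell by 0.61 ± 0.056 on the log2 scale (edgeR adjusted p = 4.5e-13). IGDCC4 averaged 94.6 ± 1.1 CPM with the MYCN hairpin and 84.7 ± 4.0 CPM with the control hairpin (SD, n = 3 each) and rose by 0.16 ± 0.046 (edgeR adjusted p = 0.00204). Both genes were chosen after their values were seen.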
